A study of Mus musculus with 8 samples.

Results

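The genes examined here are 8 that mark the urothelium, the stratified epithelium lining the renal pelvis, ureter and bladder. They were taken from the deposited tables by symbol: the uroplakins Upk1a, Upk1b, Upk2, Upk3a and Upk3b, the surface protein gene Psca, and the transcription factor genes Foxa1 and Pparg. All 8 were present among 24063 symbols. Expression was measured by RNA sequencing in tubuloids, epithelial structures grown in Matrigel from digested fragments of mouse kidneys of postnatal day 7 to 10 by the labels, while the study's methods give a younger range. Every culture, control cultures included, carried the genotype Pkd2fl/fl Pax8rtTA TetOCre mTmG. Cre is under doxycycline (DOX) control through a transactivator expressed from the Pax8 promoter, which limits it to Pax8-expressing epithelial cells. Once induced, Cre removes floxed Pkd2 and switches the colour of the mTmG membrane reporter, in part of the cells by the study's account. The study's culture protocol starts with a pulse of glial-derived neurotrophic factor (GDNF). Hepatocyte, epidermal and basic fibroblast growth factors are present throughout. Its authors report that the pulse raised Gata3, a gene listed below. From culture day 3, cultures received DOX (n = 4 libraries) or the vehicle DMSO (n = 4 libraries) for 3 days, and RNA was taken after 7 days. No group received DOX without the floxed Pkd2 alleles, so DOX, Cre and loss of Pkd2 cannot be told apart in this design. The labels do not say whether the libraries of a group came from separate animals, and p-values measure the spread between libraries, which may be partly technical.

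Uroplakins are membrane proteins that pack into rigid plaques on the apical surface of umbrella cells, the outermost cells of the urothelium. UPK1A and UPK1B are tetraspanins, and each pairs with a partner that crosses the membrane a single time: UPK2 for UPK1A, and UPK3A or UPK3B for UPK1B. FOXA1 is a forkhead factor and PPARG a nuclear receptor, and in bladder both belong to the circuit that drives urothelial differentiation, although PPARG is best known as the regulator of fat cell formation. None of these genes is exclusive to the urothelium. Upk1b and Upk3b are also expressed by mesothelium, and Pparg is active in collecting duct. In bulk RNA, fewer cells of a type and less RNA per cell cannot be told apart.

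Library totals ranged from 63922677 to 102716313 counts. DMSO 20 and DOX 19 stood apart, with counts for 13243 and 13599 genes against 17054 to 17903 in the other 6 libraries. DMSO 15 stood apart in smooth muscle and stromal markers. Kidney epithelial markers were read first, and 7 of 8 listed had counts in every library, as had 6 of 6 smooth muscle markers. Such counts do not establish identity, and Krt8 and Krt18 of this list are also listed for urothelium. Pax8 ranged from 29.2 to 117 TPM (the authors' level per transcript length, scaled to 1 sum in every library). Pkd2, the targeted gene, overlapped between the groups, with normalised counts of 4813 to 7538 in DMSO and 4136 to 5952 in DOX libraries (log2 fold change -0.31, SE 0.215, DESeq2 adjusted p = 0.999). Counts over whole transcripts do not isolate the floxed exons. By western blot the study reports less of the Pkd2 protein after DOX, with some protein and some unswitched, presumably wild-type cells remaining.

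Pparg averaged 20.2 TPM over the 8 libraries and lay above 67.9% of the detected genes. Foxa1 averaged 2.93 TPM and lay above 39.8% of them. The uroplakins and Psca averaged between 0.0758 TPM for Upk2 and 1.15 TPM for Upk1a. Pparg, summed over its 2 transcripts, exceeded Foxa1 in 8 of 8 libraries without overlap of their ranges. Taken singly, each Pparg transcript was still above Foxa1 in every library, but the ranges overlapped, from 3.81 TPM for NM_001127330 in DMSO 15 against 6.40 TPM for Foxa1 in DMSO 5. The ranges of all other neighbours in the order of mean TPM overlapped: Foxa1 exceeded Upk1a in 5 of 8 libraries, Upk1a exceeded Upk1b in 5 of 8, and Upk1b exceeded Psca in 5 of 8. Below these, Psca, Upk3b, Upk3a and Upk2 each exceeded the next in 3 or 4 of 8 libraries.

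The annotated starts were compared in their content of the dinucleotide CG. Promoter windows of 300 bases, from 250 bases before to 50 bases after an annotated start, were taken from RefSeq (GRCm38.p6, which mm10 also is) and were found for 5 of the 8 genes, with 3 windows for Pparg. The windows of Upk1a, Foxa1 and the first and last Pparg starts are shown 5′ to 3′ with each CG in capitals, since they span the lowest and highest contents found. They lie at chr7:30612685-30612984 (minus strand), chr12:57546062-57546361 (minus strand), chr6:115360894-115361193 (plus strand) and chr6:115421816-115422115 (plus strand).
Upk1a: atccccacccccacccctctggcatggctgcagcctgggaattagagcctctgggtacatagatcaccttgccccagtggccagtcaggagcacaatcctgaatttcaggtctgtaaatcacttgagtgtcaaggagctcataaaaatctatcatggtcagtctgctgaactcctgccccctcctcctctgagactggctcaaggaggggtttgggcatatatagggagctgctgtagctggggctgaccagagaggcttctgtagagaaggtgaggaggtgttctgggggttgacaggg
Foxa1: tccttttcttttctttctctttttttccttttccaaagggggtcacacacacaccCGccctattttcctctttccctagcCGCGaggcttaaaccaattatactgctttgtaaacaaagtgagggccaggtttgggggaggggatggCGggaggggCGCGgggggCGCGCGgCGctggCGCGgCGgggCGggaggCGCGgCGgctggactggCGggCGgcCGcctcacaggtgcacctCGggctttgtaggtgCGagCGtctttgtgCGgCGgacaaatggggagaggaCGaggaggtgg
Pparg first start: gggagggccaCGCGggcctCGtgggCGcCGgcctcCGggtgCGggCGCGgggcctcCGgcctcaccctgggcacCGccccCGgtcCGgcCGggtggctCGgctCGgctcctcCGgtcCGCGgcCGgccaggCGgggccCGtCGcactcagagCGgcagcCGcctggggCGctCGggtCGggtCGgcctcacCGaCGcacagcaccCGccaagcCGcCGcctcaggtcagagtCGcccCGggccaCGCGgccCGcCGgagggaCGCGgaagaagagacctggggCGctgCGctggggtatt
Pparg last start: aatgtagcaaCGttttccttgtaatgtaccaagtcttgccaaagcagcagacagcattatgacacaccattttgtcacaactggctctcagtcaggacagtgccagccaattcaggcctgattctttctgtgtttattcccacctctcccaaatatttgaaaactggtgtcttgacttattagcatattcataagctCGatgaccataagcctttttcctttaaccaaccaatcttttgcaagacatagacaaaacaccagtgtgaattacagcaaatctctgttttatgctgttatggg

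The Upk1a window held 0 CG dinucleotides, as did 5.43% of the 32851 windows. The Upk3b window (chr5:136038246-136038545) held 2 and the Upk3a window (chr15:85016891-85017190) held 9, against a median of 7 over all windows. The Foxa1 window held 26, and 16.9% of windows held at least as many. It lies within the annotated span of Foxa1, which extends upstream to position 57548029. The first Pparg window held 44, which 2.25% of windows reached, the middle one held 13 and the last held 2. Genes with a window of at least 26 CG dinucleotides had a mean of at least 1 TPM in 88.8% of 4251 cases, compared with 17.3% of 3313 genes with a window of at most 2. Pparg belongs to both of these classes through its first and last starts, and in the lower class Upk1a averaged 1.15 TPM and Upk3b 0.135 TPM. These shares are a description across genes, which are not independent replicates.

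**Figure D1:**
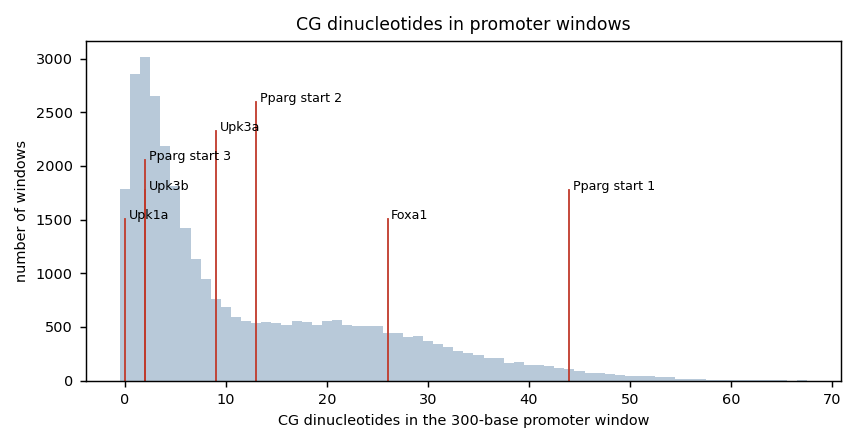
Number of CG dinucleotides (x axis) in 32851 promoter windows of 300 bases, as a histogram (y axis, number of windows), with the windows of 5 genes marked by red lines whose height has no meaning. Upk1a, Upk3b and the last Pparg start lie at 0 to 2, Foxa1 at 26 and the first Pparg start at 44.

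Short motifs were searched on both strands of the 7 windows. The forkhead core TGTTTAC was found in the Foxa1 window alone, and in 3.65% of all windows. The GATA motif AGATAA was found in the Upk3a window (11.2% of all windows). The nuclear receptor half-site AGGTCA was found in the Upk3b window and in the first and middle Pparg windows (16.3% of all windows). TATAAA was found in the middle Pparg window (13.6% of all windows), and the grainyhead motif AACCNGTT in none of the 7 (2.09% of all windows). No matches overlapped each other.

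Upk1a, the tetraspanin partner of UPK2, was the most abundant uroplakin (Entrez 109637, chromosome 7, 30603092 to 30612734, mm10). Its TPM was 0.484 in DMSO 3, 0.915 in DMSO 5, 0.242 in DMSO 15 and 3.84 in DMSO 20. In the DOX libraries its TPM was 1.10 in DOX 9, 1.45 in DOX 12, 0 in DOX 19 and 1.19 in DOX 21. DMSO 20 held the highest value and DOX 19 the lowest, and both are the libraries with few detected genes. The 153 counts of Upk1a in DMSO 20 were the only uroplakin counts in that library. The 0 counts in DOX 19 allow up to 0.0605 TPM, taking 3 counts as the limit of a count of 0, and such limits cover counting error only. The difference between the groups was within the spread between libraries, with 71.3 ± 83.9 normalised counts in DMSO and 47.7 ± 31.9 in DOX (SD, n = 4 each; log2 fold change -0.58, SE 1.32, DESeq2 adjusted p = 0.999). The sign of this difference turned without DMSO 20 alone (log2 fold change 0.69) and without both low-detection libraries (1.13, DESeq2 adjusted p = 0.756). Without DOX 19 alone the log2 fold change stayed negative, at -0.15.

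Upk1b, the tetraspanin partner of UPK3A and UPK3B (Entrez 22268, chromosome 16, 38773182 to 38800203), had 0.101 TPM in DMSO 3, 1.22 in DMSO 5, 0.215 in DMSO 15 and 0 in DMSO 20. Its TPM was 0.448 in DOX 9, 0.558 in DOX 12, 0 in DOX 19 and 1.23 in DOX 21. DMSO 5 and DOX 21 were alike at the top, and the libraries with few detected genes had none in either group. DMSO libraries held 26.5 ± 36.2 normalised counts and DOX libraries 39.4 ± 37.5 (log2 fold change 0.57, SE 1.76, DESeq2 adjusted p = 0.999). Without DOX 21 the log2 fold change was -0.24 and without DMSO 5 it was 2.16.

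The partners UPK2, UPK3A and UPK3B form the other side of each uroplakin pair, and their genes were close to the limit of detection. Upk2 (Entrez 22269, chromosome 9, 44452715 to 44454767) had 12 counts in DMSO 3, 2 in DOX 9, 10 in DOX 21 and 0 in the other 5 libraries. Upk3a (Entrez 22270, chromosome 15, 85017141 to 85022560) had 14 counts in DMSO 15, 25 in DOX 21, 2 in each of DMSO 5, DOX 9 and DOX 12, and 0 elsewhere. RefSeq places a noncoding gene, Gm52194, over part of Upk3a, and the library kit does not keep strand, so reads of that gene could be included. Upk3b (Entrez 100647, chromosome 5, 136038496 to 136044993) was spread more evenly, with 12, 16 and 25 counts in DMSO 3, DMSO 5 and DMSO 15 and 24, 11 and 11 in DOX 9, DOX 12 and DOX 21, and 0 in DMSO 20 and DOX 19. DMSO libraries held 13.1 ± 10.5 of its normalised counts and DOX libraries 9.94 ± 8.46 (log2 fold change -0.40, SE 1.64, DESeq2 adjusted p = 0.999). The Upk3b difference turned to 0.13 without DMSO 15 and 0.02 without DOX 19, and was -1.02 without DOX 9. Upk2 and Upk3a were too low to receive an adjusted p (log2 fold changes 0.12, SE 3.28, and 0.86, SE 2.49). Single libraries set both: Upk2 moved to 3.92 without DMSO 3 and to -2.30 without DOX 21, and Upk3a to 3.43 without DMSO 15 and to -1.93 without DOX 21.

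All 5 uroplakins were counted together in DOX 9 and DOX 21 alone. In 4 other libraries 4 of 5 had counts, in DMSO 20 only Upk1a, and in DOX 19 none. Summed over the 5 genes, uroplakin TPM ran from 0.973 in DMSO 3 to 3.84 in DMSO 20 among control libraries, and from 0 in DOX 19 to 3.41 in DOX 21 among DOX libraries. The composition differed between the 2 libraries with the highest sums: that of DMSO 20 was Upk1a alone, whereas DOX 21 held the highest TPM of Upk1b, Upk2 and Upk3a. For Upk1b and Upk2 the next library was close, at 1.22 against 1.23 TPM and at 0.272 against 0.288 TPM. The part of gene detection in these patterns was not tested.

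**Figure D2:**
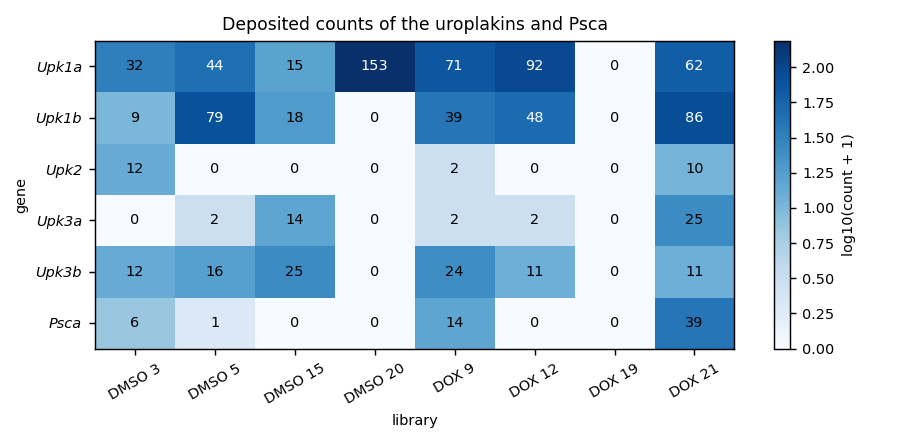
Deposited counts (numbers in the cells, shading as log10 of count + 1) of the 5 uroplakins and Psca (rows) in the 4 DMSO and 4 DOX libraries (columns). DOX 19 has 0 counts of all 6 genes, DMSO 20 has 153 counts of Upk1a and 0 of the others, and DOX 9 and DOX 21 have counts of all 6.

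Psca encodes a small surface protein of the Ly6 family, attached to the membrane by a lipid anchor and found on urothelium, prostate and stomach cells (Entrez 72373, chromosome 15, 74714839 to 74717065). It had 6 counts in DMSO 3, 1 in DMSO 5, 14 in DOX 9, 39 in DOX 21 and 0 in the other 4 libraries. DOX 21 was highest at 1.15 TPM, followed by DOX 9 at 0.333 TPM, and both remaining DOX libraries were at 0, as were DMSO 15 and DMSO 20. Counts of 0 in Psca and in the genes of UPK2, UPK3A and UPK3B allow 0.0388 to 0.115 TPM. The fitted difference of Psca was the largest of the 8 in size and among the least certain (log2 fold change 2.99, SE 2.86). Psca received no adjusted p from DESeq2, and its unadjusted p in that fit across all genes, which is not an exact test, was 0.296. Without DOX 21 the log2 fold change was 1.26 and without DMSO 3 it was 5.08.

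The gene Snx31 encodes a sorting nexin that binds uroplakins during their turnover, and it was highest in DOX 21 as well, at 3.06 TPM against at most 0.498 TPM in any other library. Ly6d, a Ly6 family gene of basal and squamous cells, had its highest TPM of 2.48 in DOX 21, followed by 0.974 in DMSO 3. These genes, and the keratin gene Krt20 further on, were singled out after their values were seen. The basal keratin genes Krt5 and Krt14 had 4.14 and 15.0 TPM in DOX 21 and were higher in DOX 19, at 16.9 and 97.2 TPM, where all 5 uroplakins were at 0. In the other 6 libraries Krt5 reached at most 0.0557 TPM and Krt14 at most 5.41 TPM. The 2 libraries with the most basal keratin thus included both the one without uroplakin counts and one with counts of all 5.

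Foxa1 (Entrez 15375, chromosome 12, 57540628 to 57548029) was detected in every library. Its TPM was 3.97 in DMSO 3, 6.40 in DMSO 5, 1.55 in DMSO 15 and 1.72 in DMSO 20, and it was 2.11 in DOX 9, 1.12 in DOX 12, 5.52 in DOX 19 and 1.03 in DOX 21. High and low libraries occurred in both groups. Of the libraries low in detected genes, DOX 19 was exceeded by DMSO 5 alone, and DMSO 20 lay mid-range, above 3 of the 8. DMSO libraries held 450 ± 269 normalised counts and DOX libraries 323 ± 295 (log2 fold change -0.48, SE 0.726, DESeq2 adjusted p = 0.999; edgeR adjusted p = 0.999). Without DOX 19 the log2 fold change was -1.31, and without both low-detection libraries it was -1.52 (DESeq2 adjusted p = 0.333). Without DMSO 5, DOX 12 or DOX 21 it was smaller, at -0.10, -0.21 and -0.22. Its direction was the same in every fit. RefSeq lists Ttc6 as overlapping Foxa1, but in the GENCODE models the 2 genes shared 0 exonic bases.

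Pparg (Entrez 19016, chromosome 6, 115360879 to 115490404) was the most abundant of the 8. Its TPM, summed over 2 transcripts, was 14.2 in DMSO 3, 31.6 in DMSO 5, 7.65 in DMSO 15 and 26.3 in DMSO 20, and it was 14.0 in DOX 9, 30.7 in DOX 12, 22.6 in DOX 19 and 14.3 in DOX 21. DMSO 15 was the lowest library and the ranges of the groups overlapped. DMSO 15 also had the lowest sum of kidney epithelial markers (457 TPM) and the highest sums of smooth muscle (3397 TPM) and stromal markers (2089 TPM), and the part of this in its Pparg level was not tested. Without DMSO 15 the log2 fold change of Pparg was -0.25, and it turned to 0.23 without DMSO 5 and to 0.13 without DMSO 20. DMSO libraries held 1464 ± 659 normalised counts and DOX libraries 1454 ± 447 (log2 fold change -0.01, SE 0.436, DESeq2 adjusted p = 0.999). The 95% interval of this difference ran from -0.86 to 0.85 on the log2 scale, the narrowest of the 8, and both of its bounds lie beyond a 1.5-fold change.

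The files list 2 Pparg transcripts. In the GENCODE M21 models NM_001127330 starts inside the first, CG-rich window and has 475 codons, and NM_011146 starts in the last, CG-poor window and has 505. The longer protein is the form known from fat cells. The models give 485 exonic bases to the first transcript alone and 127 to the other alone, so most of their sequence is shared. The deposited values imply a length of 1857 bases for NM_001127330 against 2125 in its model, so these bases may not be those behind its counts. The counts of NM_001127330 were the higher in 8 of 8 libraries, by 14 counts in DMSO 15 up to 77 in DMSO 5, or 3.14% to 7.06% of its own count. If shared reads were counted for both transcripts, that excess is the reads in sequence of NM_001127330 alone less those in sequence of NM_011146 alone, and the use of each start cannot be read from it. The summed TPM of Pparg would then hold the shared reads once for each transcript. Taken singly the transcripts had 3.81 TPM (NM_001127330) and 3.83 TPM (NM_011146) in DMSO 15, both above Foxa1 in that library.

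**Figure D3:**
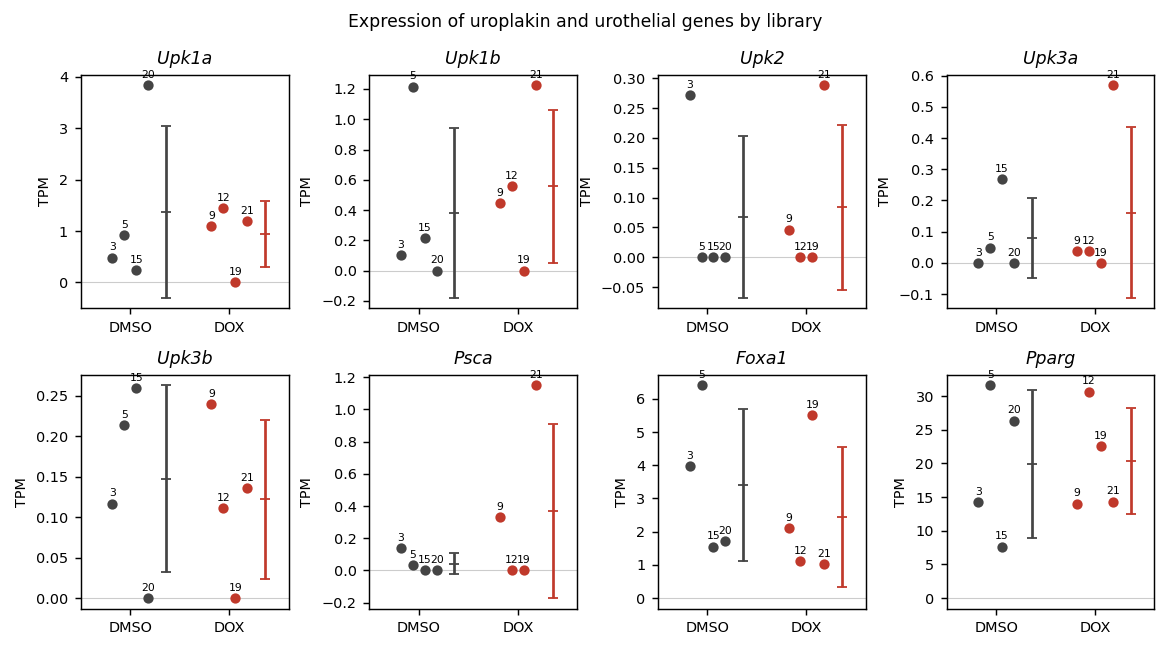
Deposited TPM (y axis, a scale for each gene) of the 8 genes in 4 DMSO (grey) and 4 DOX (red) libraries, with points labelled by library number and bars giving mean ± SD. The ranges of both groups overlap for all 8 genes, from Upk2 at 0 to 0.288 TPM up to Pparg at 7.65 to 31.6 TPM.

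Across the 8 genes, DOX and DMSO were compared with the Wald test of DESeq2 fitted to all genes. It called 0 of the 8. A gene was called at 1.5-fold or more with an adjusted p not above 0.05. Over all genes 25 of 15555 were called (0.161%), and edgeR's quasi-likelihood test called 0 of 15562 (0%). Of the 8, 5 received an adjusted p in DESeq2 and 3 (Upk2, Upk3a and Psca) were removed by its filter on low means. Before adjustment, p was below 0.05 for 0 of the 8 in DESeq2 and for 0 of the 5 that edgeR tested, against 899 of 19268 genes in DESeq2 and 476 in edgeR. The libraries of DOX and DMSO overlapped for all 8 genes, whereas the groups were separate for 2.71% of 17633 genes averaging 2 or more counts. Fitted differences were positive for 4 genes (Upk1b, Upk2, Upk3a and Psca) and negative for 4 (Upk1a, Upk3b, Foxa1 and Pparg), with a median of 0.05 on the log2 scale beside -0.06 over all genes with an adjusted p. The intervals were wide, from -6.31 to 6.55 for Upk2 and from -2.62 to 8.60 for Psca, and include large changes in either direction for these scarce genes.

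**Figure D4:**
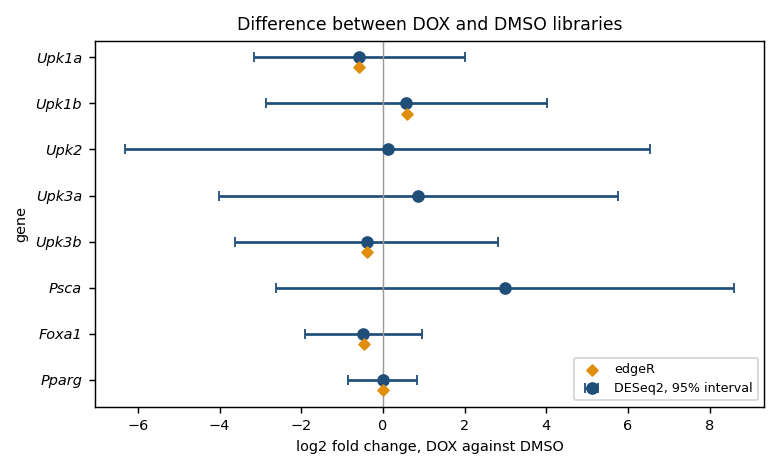
Log2 fold change of DOX against DMSO libraries (x axis) for the 8 genes (y axis), as the DESeq2 estimate with its 95% interval (blue circles and bars) and the edgeR estimate where that tool tested the gene (orange diamonds). Every interval includes 0, and that of Pparg, from -0.86 to 0.85, is the shortest.

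Genes with a profile close to Upk1a, Foxa1 and Pparg, the 3 with a mean normalised count of at least 50, were then named. Closeness was the mean absolute difference of log2(normalised count + 1) over 8 libraries, after each gene was centred on its own mean. For Pparg the nearest genes were Clec11a (0.13), Pax8 (0.17), Zfp788 (0.17), Slc9a8 (0.19) and Mat2a (0.19). Pax8, the kidney lineage factor whose promoter drives the transactivator here, ran from 29.2 TPM in DMSO 15 to 117 TPM in DOX 12, and Pparg had its lowest value in that same DMSO library. For Foxa1 they were Gm14207 (0.30), Cep70 (0.38), Ppm1j (0.42), Vsig10 (0.43) and Pim2 (0.43). For Upk1a they were 6330408A02Rik (0.42), Park2 (0.45), C330013E15Rik (0.48), Pnpla7 (0.50) and Gm10190 (0.50). Among the genes near Upk1a, Pnpla7 had 8.89 TPM in DMSO 20 and 0.109 in DOX 19, the highest and the lowest of its 8 values as in Upk1a. In DOX 19 3 of these 5 genes were at 0 TPM, and that library had few detected genes; the part of this in their closeness was not tested.

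**Figure D5:**
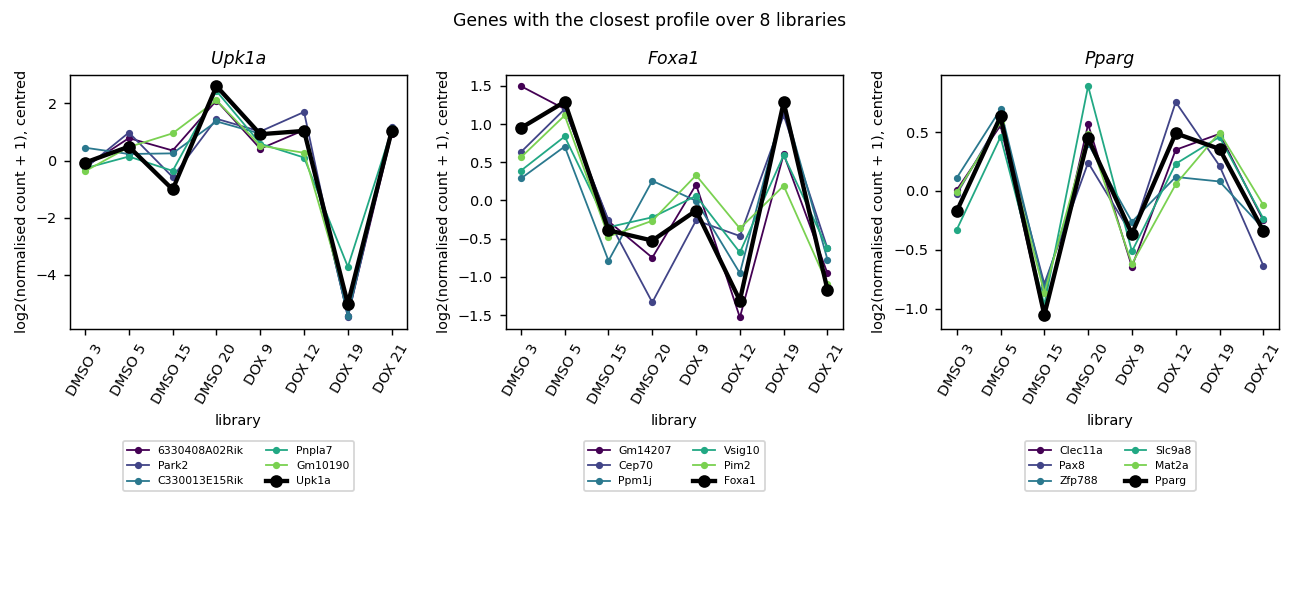
Log2(normalised count + 1), centred on each gene's mean (y axis, a scale for each panel), over the 8 libraries (x axis) for Upk1a, Foxa1 and Pparg (black) and the 5 genes closest to each (colours); lines join libraries for reading only. The Upk1a panel drops in DOX 19, and the Pparg panel is lowest in DMSO 15.

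Other genes of the urothelium were read from lists. The urothelial transcription factors were all detected (11 of 11), and 1 was called higher and 0 lower, with a median log2 fold change of -0.27. The called gene was Grhl3, a grainyhead factor needed for terminal differentiation of umbrella cells and also of skin. Grhl3 had 16, 8, 4 and 0 counts in DMSO 3, DMSO 5, DMSO 15 and DMSO 20, and 111, 56, 734 and 100 counts in DOX 9, DOX 12, DOX 19 and DOX 21. Every DOX library was above every DMSO library, and DOX 19, in which the uroplakins were at 0, was the highest (log2 fold change 5.29, SE 1.21, DESeq2 adjusted p = 0.014; edgeR adjusted p = 0.999). The call was lost without DOX 19 (log2 fold change 3.55, DESeq2 adjusted p = 0.236) and without DMSO 5 (5.39, adjusted p = 0.0817), and without DOX 12 DESeq2 gave no p. It held without both low-detection libraries (log2 fold change 3.17, DESeq2 adjusted p = 0.0238). The most abundant factors of the list were Rxrb, Elf3, Rxra and Gata3, and of these Rxra, the partner with which PPARG binds DNA, ranged from 21.1 to 48.1 TPM. Gata3, a factor shared by collecting duct and urothelium, was at 21.2 ± 13.6 TPM in DMSO and 17.6 ± 7.92 TPM in DOX libraries (SD, n = 4 each).

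Keratins of simple epithelium were abundant while uroplakins were scarce. Krt7, present in umbrella cells and collecting duct alike, ranged from 137 to 560 TPM, and Krt20, the keratin of umbrella cells, from 5.25 TPM in DMSO 20 to 26.1 in DOX 9. Of 9 urothelial keratins 0 were called (5 fitted higher and 4 lower, median log2 fold change 0.02). Unadjusted DESeq2 p was below 0.05 for 2, the basal keratins Krt5 (log2 fold change 9.01, SE 2.32, DESeq2 adjusted p = 0.0548) and Krt14 (3.70, SE 1.31, adjusted p = 0.431), and for 0 of 9 without DOX 19 or without DOX 21. It was below 0.05 for 4 of 9 without DMSO 15, and 1 keratin was called without DMSO 3 and 1 without DOX 12. Krt5 and Krt14 are also in the squamous list below, so the results of that list are not separate from these. Of 7 genes of uroplakin vesicle traffic 0 were called, with a median of -0.21, and Upk3bl, a relative of Upk3b, reached at most 0.912 TPM. In the Ly6 family list 8 of 10 genes had counts and 0 were called (median -0.56). In contrast to Psca, its relatives Ly6a and Ly6e were at 1576 to 8185 and 804 to 2591 TPM. Of 12 genes known as PPARG targets 11 had counts, 8 received an adjusted p and 0 were called (median 0.25), and the fat cell gene Cidec was at 0 counts in all 8 libraries. The median over all genes was -0.06. Single libraries set the signs of these medians, as fits added after the data were seen showed. Without DMSO 5 the median was 0.11 for the transcription factors and 0.02 for vesicle traffic, and without DMSO 3 it was 0.03 for the Ly6 family. For PPARG targets it was -0.03 without DMSO 20 (1 gene called), -0.11 without DOX 19 and -0.15 without both low-detection libraries. For keratins it ran from -0.33 without DOX 19 to 0.30 without DMSO 20.

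Markers of other cells that share these genes were summed per library. Mesothelial markers (5 of 6 in the files) summed to 34.7 to 154 TPM in DMSO and 56.3 to 112 TPM in DOX libraries. DMSO 20, the library with the most Upk1a, had the highest mesothelial sum, with Msln at 88.4 TPM, while its Upk1b and Upk3b were at 0 and Lrrn4 was at 0 in every library. Adipocyte markers summed to at most 12.1 TPM in DMSO and 8.51 TPM in DOX libraries, with Lep and Cidec at 0 throughout. Squamous markers summed to 10.3 to 45.8 TPM in DMSO and 9.48 to 146 TPM in DOX libraries, smooth muscle markers to 98.8 to 3397 and 302 to 519 TPM, and stromal markers to 224 to 2089 and 386 to 715 TPM. Principal cell markers summed to 5.49 to 369 TPM in DMSO and 12.8 to 74.9 TPM in DOX libraries, and Aqp2 was at 0 in 7 of 8 libraries. Fxyd4, in contrast, was present in every library, from 4.44 TPM in DMSO 15 to 306 TPM in DMSO 5. Avpr2 ranged from 0 in DMSO 15 and DMSO 20 to 43.7 TPM in DMSO 5. Fitted differences were lower in DOX for 6 of 6 smooth muscle genes (median log2 fold change -1.83, 3 with unadjusted DESeq2 p below 0.05). They were also lower for 5 of 5 principal cell genes with an adjusted p (median -1.72) and 5 of 6 stromal genes (median -1.07). The same held for 7 of 8 kidney epithelial genes (median -0.39) and 2 of 2 adipocyte genes with an adjusted p (median -0.64). They were higher for 5 of 7 squamous genes (median 1.40, 3 with unadjusted DESeq2 p below 0.05) and 3 of 4 mesothelial genes (median 0.21). Over all genes the median was -0.06, and unadjusted DESeq2 p was below 0.05 for 899 of 19268 (4.67%). These directions also rested in part on single libraries. Without DMSO 15 the smooth muscle median was 0.06 (3 genes higher and 3 lower) and the stromal median -0.11 (3 and 3). Without DMSO 5 the principal cell median was -0.29 (5 of 5 lower). The kidney epithelial median ran from -0.69 without DMSO 15 (8 of 8 lower) to -0.10 without DMSO 3 (5 of 8 lower). The adipocyte median turned to 0.29 without DMSO 15, and the mesothelial median to -0.12 without DOX 19. Without DOX 19 the squamous median was 0.55 (4 of 7 higher, 0 with unadjusted DESeq2 p below 0.05), while without DMSO 20 it was 4.49 and without both low-detection libraries 2.10. With all 8 libraries none of these lists held a called gene, while 1 squamous gene was called without DMSO 3 and 1 without DOX 12. In each of these fits it was the keratin already counted above. The squamous and keratin lists share genes, Krt5 and Krt14 among them. The part of these lists in the levels of the 8 genes was not tested.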

How the data were processed

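RNA sequencing was analysed from 8 tubuloid libraries, placed in the DMSO (n = 4) and DOX (n = 4) groups by their titles. Per the methods and the submitters' processing notes, poly-A selected SMART-Seq v4 libraries were sequenced as paired ends, aligned with STAR and counted (featureCounts is named) on mm10; versions and settings are not given in the sources used here. The authors deposited, for every RefSeq transcript, a raw count. The deposited FPKM corrects counts for transcript length and library total, as the authors computed it, and was used only to derive the length behind each limit. The deposited TPM brings these FPKM values to an equal sum in each library, and gives levels between genes per length. Counts and TPM were summed by symbol. Reads shared by isoforms may be counted for each, which would overstate a gene with several transcripts, here Pparg; this was not tested.

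DOX and DMSO were compared over all genes with DESeq2 1.42.0 in R 4.3.3, since the study's methods name DESeq2. Its default size factors and Cook's distance filter were kept, the filter on low means was run at alpha 0.1, p-values were adjusted by Benjamini-Hochberg, and group was the sole term. edgeR 4.0.16 was the alternative test. The computation was tested on simulated data, in which DESeq2 recovered more of the changed genes than edgeR but made more false calls than its threshold allows, and more than edgeR. Alternatives were TMM size factors, filters on low counts, both DESeq2 filters off, 1 transcript per gene, and leaving out libraries. Named genes were the 8, the genes called in 13 lists of related genes with at most 4 abundant genes for each list, and the 5 nearest genes by profile. Outside this rule, Snx31, Ly6d and Krt20 were named after their values were seen, and Aqp2, Lrrn4, Lep and Cidec as markers at or near 0. The 8 genes and the lists were chosen with earlier results of these data known. Muc16, listed for mesothelium, was not analysed here.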

Additional observations from a re-analysis of the deposited data

Results flagged for a closer look

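Values of each gene were compared within each group of 4 libraries on the scale of log2(normalised count + 1), and the highest or lowest library was taken as far from the rest when the step to its neighbour, as a share of the group's range, passed Dixon's 95% limit for 4 values. This was done in 16 groups and singled out 2, where about 1 in 20 is what chance gives. Upk1a in DOX 19 lay 0.981 of the range below the other DOX libraries, with 0 counts against 62 to 92. DOX 19 had counts for 13599 genes, fewer than the other DOX libraries, and the part of this in the value was not tested. Upk2 in DMSO 3 lay the whole range (a share of 1) above the other DMSO libraries, with 12 counts against 0 in each of them. With 3 values tied at 0 this share is 1 for any count in the remaining library, so the limit and the chance rate say nothing about Upk2.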

How the results depend on the processing

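No paired analysis was possible because the library numbers in the titles are not shared between DOX and DMSO. The number of the 8 genes called was 0 in all 16 alternatives. The number called among all genes was 25 and became 0 in edgeR and in edgeR with no filter on low counts, 16 with at least 10 counts in every library, 48 with the Cook's distance filter off, 51 without both low-detection libraries, and 14 (without DMSO 3) to 74 (without DMSO 15) when 1 library was left out. Related genes called, 1 (Grhl3), became 0 in both edgeR fits and with at least 10 counts in every library, 2 with the Cook's distance filter off and with 1 transcript per gene, and 0 to 2 when 1 library was left out. Of 119 fold changes of the 8 genes under alternatives, 104 kept their sign and 15 turned. Without both low-detection libraries, the log2 fold change turned to 1.13 for Upk1a and 0.0508 for Pparg. Leaving out 1 library gave -0.91 to 0.69 for Upk1a, -0.24 to 2.16 for Upk1b, -2.30 to 3.92 for Upk2, -1.93 to 3.43 for Upk3a, -1.02 to 0.13 for Upk3b and -0.25 to 0.23 for Pparg. Psca stayed positive (1.26 to 5.08) and Foxa1 negative (-1.52 to -0.10) in every alternative that gave a value. The cause was not tested.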
